A study of Bos taurus with 8 samples.

Results

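The circadian clock genes considered here were BMAL1 (formerly ARNTL), CLOCK, PER1, PER2, PER3, CRY1, CRY2, NR1D1, DBP and TEF. They were looked for among the non-control probes of a bovine oligonucleotide array, through the RefSeq accession of each probe. Of these 10 genes, 2 had a matching probe, CRY1 and DBP, each with 1 probe. For the other 8 (BMAL1, CLOCK, PER1, PER2, PER3, CRY2, NR1D1 and TEF) no probe was matched by accession, so they are not analysed here. Some probes carry other kinds of names, so a lack of a match does not mean that the array has no probe for the gene. In all, the accessions linked probes to 7788 gene symbols.

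The tissue was rumen papillae of 4 female Holstein cows with rumen cannulas, each sampled on both diets in a crossover. The LC diet held 40% concentrate feed and the HC diet 70%, of dry matter. Cows 1 and 2 received LC in period 1 and HC in period 2, and cows 3 and 4 received HC in period 1 and LC in period 2. Papillae were taken on day 21 of each period, 4 h after the morning feeding, and each sample was hybridized to 1 single-colour array with nothing pooled. Each period had a slide of its own, which carried 2 arrays of either diet, and a period difference cannot be told apart from a slide difference. There was 1 sampling time per cow and period, so these data hold levels at that time and no daily rhythm.

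The mammalian clock is a transcriptional loop. BMAL1 pairs with CLOCK, or with its relative NPAS2, and this pair switches on the PER and CRY genes, whose proteins return to the nucleus and repress the pair. A further loop runs through the nuclear receptors of the REV-ERB family (NR1D1) and the ROR family, which repress or activate BMAL1. The factors DBP, TEF and HLF and their antagonist NFIL3 act on a shared DNA element and carry the rhythm to output genes. Clocks run in most peripheral tissues, the gut lining included, and feeding time is known as one of the cues that set them.

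Signals are normalized log2 intensities, and differences are in log2 units. Cows are numbered as in the labels of the scanner output. In the authors' table of normalized values the columns of cows 1 and 2 appear exchanged on both diets. Each followed the array of the other cow (r across probes 0.9988 to 0.9989) more closely than its own (0.9939 to 0.9946). Which animal is cow 1 and which is cow 2 is therefore uncertain, and the 2 names exchange places throughout if that table is right. Both cows had the same order of diets, so the diet, period and cow-pair comparisons are the same under either naming.

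The arrays had 76.9 to 81.2% of the 21475 probes well above background by the scanner software's own test, and the number of arrays limits the precision. Epithelial markers were measured in these papillae: 9 of the 10 with a probe were well above background on all 8 arrays, among them KRT14 and DSP, while TP63 was so on no array. Stromal and muscle markers (9 of 9) and leukocyte markers (5 of 7) were also well above background on all 8 arrays, so the papillae held other cells besides epithelium. In such bulk tissue, fewer cells of a type and less RNA per cell cannot be told apart.

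CRY1 (NM_001105415) encodes cryptochrome 1, a repressor of the clock. Its probe was well above background on all 8 arrays. On the LC diet the log2 signal was 7.29 in cow 1, 7.50 in cow 2, 6.85 in cow 3 and 6.87 in cow 4. On the HC diet it was 6.83 in cow 1, 7.56 in cow 2, 6.83 in cow 3 and 6.72 in cow 4. The diets overlapped, and both arrays labelled cow 2 had the highest signals of their diets. The LC array of cow 1 was high as well, while the HC array of the same cow lay with those of cows 3 and 4. The spots of the CRY1 probe on an array differed by at most 0.16, against a range of 0.84 over the 8 arrays.

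CRY1 averaged 7.13 ± 0.32 (SD, n = 4) on LC, against 6.98 ± 0.39 (SD, n = 4) on HC. The difference was -0.14 (standard error 0.17, 95% interval -0.56 to 0.27). Limma gave it an unadjusted P of 0.431, and the exact two-sided permutation test a P of 0.629. CRY1 was higher on the HC diet in 1 of 4 cows. The within-cow differences, HC minus LC, were -0.46, 0.06, -0.02 and -0.15 in cows 1 to 4. The interval leaves room for a signal on HC from 0.679 to 1.21 times that on LC.

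By period, CRY1 averaged 7.08 ± 0.37 (SD, n = 4) in period 1 and 7.03 ± 0.35 (SD, n = 4) in period 2. The period difference was -0.06 (standard error 0.17, 95% interval -0.47 to 0.35), and the exact permutation P was 1.00. The groups overlapped.

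The CRY1 signal also differed between cows, although the 2 arrays of cow 1 differed by -0.46 (HC minus LC). The mean of both arrays of a cow was 7.06 in cow 1, 7.53 in cow 2, 6.84 in cow 3 and 6.79 in cow 4, with the first 2 values exchanged under the naming of the authors' table. The contrast of cows 1 and 2 against cows 3 and 4 is the same as the interaction of diet and period in this design. It was 0.48 (standard error 0.17), or 1.39-fold, with an unadjusted P of 0.0295 and an adjusted P of 0.452 from limma over all probes. Put as a diet difference within each period, CRY1 differed by -0.62 in period 1 and by 0.34 in period 2. Since the fit treats both arrays of a cow as independent and this is a comparison of cows, limma was also given 1 mean per cow, and the unadjusted P was then 0.0649. Without the HC array of cow 1 the CRY1 contrast was 0.66 and passed the fold threshold as well (unadjusted P 0.00158), and the diet difference was 0.0376. Without the HC array of cow 2 the contrast was 0.30 (unadjusted P 0.0404), and the diet difference was -0.33 (unadjusted P 0.0302). The unadjusted P of the contrast was above 0.05 on omission of the LC array of cow 2 (0.0859), 3 (0.0699) or 4 (0.0655), and likewise for HC with cow 3 (0.0549) or 4 (0.0770). Among all probes, 10.2% had an unadjusted P under 0.05 for this contrast.

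DBP (NM_001037445) encodes D-box binding protein, an output factor switched on by the clock's activators. Its probe was well above background on all 8 arrays. The log2 signal on LC was 12.24 in cow 1, 12.46 in cow 2, 12.08 in cow 3 and 11.92 in cow 4. On HC it was 12.21 in cow 1, 12.17 in cow 2, 12.11 in cow 3 and 12.29 in cow 4. The HC arrays fell inside the range of the LC arrays. The standard deviation of DBP over the 8 arrays was 0.16, at the 32.0th percentile among 16030 probes that were above background throughout, and the spots of its probe on an array differed by up to 0.24.

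DBP averaged 12.17 ± 0.23 (SD, n = 4) on LC, against 12.20 ± 0.08 (SD, n = 4) on HC. The difference was 0.03 (standard error 0.10, 95% interval -0.22 to 0.27). Limma gave it an unadjusted P of 0.803, and the exact two-sided permutation test a P of 0.83. DBP was higher on the HC diet in 2 of 4 cows. The interval spans 0.859 to 1.21 times the LC signal.

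The DBP signal was 12.28 ± 0.14 (SD, n = 4) in period 1 and 12.09 ± 0.13 (SD, n = 4) in period 2, and it was lower in period 2 in 4 of 4 cows. The differences within the cows, period 2 minus period 1, were -0.03, -0.29, -0.04 and -0.38 in cows 1 to 4. The mean difference was -0.18 (standard error 0.10, 95% interval -0.43 to 0.06), for which limma gave an unadjusted P of 0.121 and the exact permutation test a P of 0.114. The periods overlapped, and the difference did not pass the test. For the contrast of cows 1 and 2 against cows 3 and 4, DBP had 0.17 (standard error 0.10) and an unadjusted P of 0.148.

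A gene was taken to pass both thresholds where it changed 1.5-fold or more with an unadjusted P below 0.05. For diet 0 of the 2 genes did so, against 0.922% of all probes (0.494% higher and 0.428% lower on HC). For period it was 0 of 2, against 3.86% of all probes (1.09% higher and 2.77% lower in period 2), and for the contrast of the cow pairs 0 of 2, against 2.93%. After adjustment 0 of 2 passed in each, where 0% of all probes did for diet, 0.0419% for period and 0.0373% for the cow pairs. At an unadjusted P under 0.05 alone, the count was 0 for diet, 0 for period and 1 (CRY1) for the cow pairs.

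**Figure D1:**
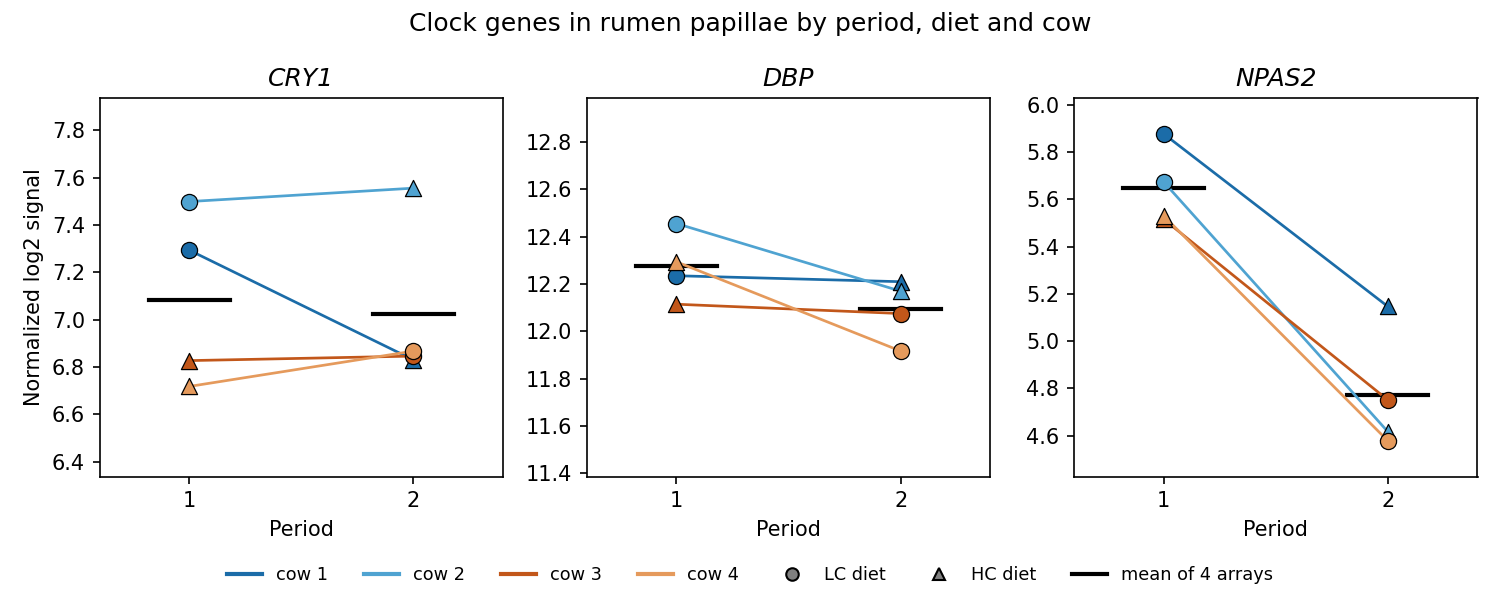
Normalized log2 signal (vertical axes, each spanning 1.6 units) of CRY1, DBP and NPAS2 on the 8 arrays, by period. Each line joins the arrays of 1 cow, circles are LC and triangles HC, and black bars are the means of the 4 arrays of a period. CRY1 is highest in the cow labelled 2 (cow 1 by the authors' table) in both periods, and NPAS2 falls from period 1 to period 2 in all 4 cows on either order of diets.

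A list of 39 other genes linked to the clock was taken alongside: partners and repressors of the core loop, ROR and REV-ERB receptors, D-box factors, the kinases and ubiquitin ligases that set the life of PER and CRY proteins, output genes and co-regulators, and genes known to answer to glucocorticoids and feeding. Of these, 20 had a probe. In that number, 16 were well above background on all 8 arrays, HLF was so on 6, and RORB, FBXL21 and ZBTB16 were so on none. NPAS2 was the measured gene nearest to the missing activators BMAL1 and CLOCK.

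NPAS2 (NM_001083763), the partner of BMAL1 in place of CLOCK, was lower in period 2. In period 1 the log2 signal was 5.88 in cow 1 and 5.67 in cow 2, on LC, and 5.52 in cow 3 and 5.53 in cow 4, on HC. In period 2 it was 5.15 in cow 1 and 4.62 in cow 2, on HC, and 4.75 in cow 3 and 4.58 in cow 4, on LC. The periods did not overlap, on either diet. The share of all probes without overlap between groups was not counted, for period or diet. By limma, 12.3% of all probes had an unadjusted P under 0.05 for period.

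NPAS2 averaged 5.65 ± 0.17 (SD, n = 4) in period 1 and 4.77 ± 0.26 (SD, n = 4) in period 2. The difference was -0.88 (standard error 0.14, 95% interval -1.22 to -0.53), a 1.83-fold lower signal. The unadjusted P from limma was 0.000702, the adjusted P over all probes 0.105, and the exact two-sided permutation P 0.0286, the smallest possible for this number of arrays. The differences within the cows were -0.73, -1.06, -0.76 and -0.95 in cows 1 to 4. For period, 1 of the 20 other genes passed both thresholds, NPAS2, against 3.86% of all probes (2.77% lower in period 2). With cow as a random block the adjusted P from limma was 0.0427, but with cow as a fixed block it was 0.131. Normexp background correction adds an offset of 50 to the intensities before the log. With it the NPAS2 difference was -0.28 (unadjusted P 0.00191 from limma), short of the fold threshold.

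Between the diets NPAS2 differed by -0.02 (standard error 0.14, 95% interval -0.36 to 0.33), and 2 of 4 cows had more of it on HC, those that received HC in period 1. The unadjusted P for diet was 0.905.

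Markers of other cells were set beside this period difference. Among all probes, 3.86% passed both thresholds for period (2.77% lower in period 2). Of 7 leukocyte markers with a probe, 1 passed both thresholds for period, MS4A1 of B cells, which had a difference of -0.77 (standard error 0.16) and was well above background on 4 arrays of period 1 and 1 array of period 2. The T cell gene CD3E differed by 0.50 in the other direction. The other listed B cell and T cell markers with a probe, CD79A and CD2, differed by -0.06 each. The summed leukocyte signal ran from 1593 to 2395 in period 1 and from 1700 to 2655 in period 2, with ITGAM well above background on no array. The summed epithelial signal was 806584 to 946520 in period 1 and 708431 to 907020 in period 2, with 0 of 10 markers past the thresholds. Of the stromal and muscle markers, 0 of 9 passed the thresholds, and their sum was 27199 to 33990 in period 1 and 28542 to 33655 in period 2. Of 3 red cell markers, ALAS2 was lower in period 2 past both thresholds, but it was well above background on only 2 arrays, and the summed red cell signal ran from 3013 to 10226 in period 1 and from 3579 to 9052 in period 2. The part of other cells, and that of the slide, in the NPAS2 difference was not tested.

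The D-box factors are the family of DBP. NFIL3, which opposes DBP at the D-box, had a log2 signal of 6.61, 6.53, 5.97 and 6.12 in cows 1 to 4 in period 1 and of 5.73, 5.85, 5.28 and 6.07 in period 2. It was lower in period 2 in 4 of 4 cows, with differences of -0.88, -0.69, -0.69 and -0.05 in cows 1 to 4. The NFIL3 difference was -0.58 (standard error 0.18), for which limma gave an unadjusted P of 0.0182 and an adjusted P of 0.284 and the exact permutation test a P of 0.0571, and its 1.49-fold size was short of the fold threshold. The periods overlapped. With 1 array omitted the NFIL3 difference lay between -0.78 and -0.38, and it passed both thresholds without the LC array of cow 2 (-0.59) or of cow 4 (-0.78) and without the HC array of cow 2 (-0.61) or of cow 3 (-0.61). Its unadjusted P was above 0.05 without the LC array of cow 1 (0.0508) and without the HC array of cow 1 (0.0537) or of cow 4 (0.0544). For HLF, well above background on 6 arrays, the differences were 0.19 for diet (95% interval -0.57 to 0.94) and 0.15 for period.

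Among the kinases and ligases that mark PER and CRY proteins for breakdown, 0 of 3 with a probe passed the thresholds for diet or period. CSNK1D, a casein kinase that phosphorylates PER, differed by -0.17 for diet and -0.24 for period (unadjusted P 0.0549). FBXL21, a ligase subunit for cryptochromes, was well above background on no array, so no fold change is given. Its log2 signal was 0.20 to 0.99 on LC and 0.18 to 1.56 on HC, with overlap. In the authors' table it was 0.78 to 0.96 on LC and 0.16 to 0.24 on HC, with no overlap, and there it passed both thresholds for diet (adjusted P 0.0892 from limma). GSK3B, a kinase that acts on several clock proteins, differed by -0.02 and -0.14.

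Of the repressors and receptors, BHLHE40, which competes for the E-box, differed by 0.00 for diet (95% interval -0.52 to 0.52) and 0.15 for period, and RORA, an activator of BMAL1, by 0.19 for diet (95% interval -0.06 to 0.44) and 0.13 for period. Neither passed the test.

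For diet, 1 of the 20 other genes passed both thresholds, against 0.922% of all probes. It was ZBTB16, a gene known to respond to glucocorticoids. On no array did its signal stand well above background, so no fold change is given, and it no longer passed on omission of the LC array of cow 2 or 4, nor, for HC, of that of cow 2 or 3. SIRT1, a NAD-dependent deacetylase that acts on clock proteins, had a log2 signal of 5.12, 5.47, 5.51 and 5.99 on LC and of 5.98, 6.32, 5.88 and 5.997 on HC in cows 1 to 4. All 4 of 4 cows had more SIRT1 on HC, by 0.86, 0.85, 0.37 and 0.01, and the diets overlapped. The SIRT1 difference was 0.52 (standard error 0.16), or 1.44-fold. Limma gave an unadjusted P of 0.0152 and an adjusted P of 1.00, and the exact permutation test a P of 0.0857. It was short of the fold threshold, which it passed without the LC array of cow 2 (0.61) or of cow 4 (0.64) and without the HC array of cow 1 (0.61). The unadjusted P was above 0.05 without the LC array of cow 1 (0.44, P 0.0520 from limma) or the HC array of cow 2 (0.44, P 0.0514). The SIRT1 difference was 0.65 within the slide of period 1, 0.40 within that of period 2 (unadjusted P 0.120) and 0.21 with normexp background correction. SIRT1, NFIL3, FKBP5 and FBXL21 were named after their values were seen, as were ZBTB16, HLF, CSNK1D, GSK3B, BHLHE40 and RORA.

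Over the 20 other genes, the median difference was -0.03 for diet, against 0.00 for all probes, and -0.07 for period, against 0.02. For diet 5 were higher and 15 lower on HC, and for period 7 were higher and 13 lower in period 2, while 50.01% and 46.1% of all probes were lower. By limma, 0 of the 20 had an adjusted P under 0.05 for either, and an unadjusted P under 0.05 was found for 2 for diet (SIRT1 and ZBTB16) and 2 for period (NPAS2 and NFIL3), where 3.65% and 12.3% of all probes had one.

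**Figure D2:**
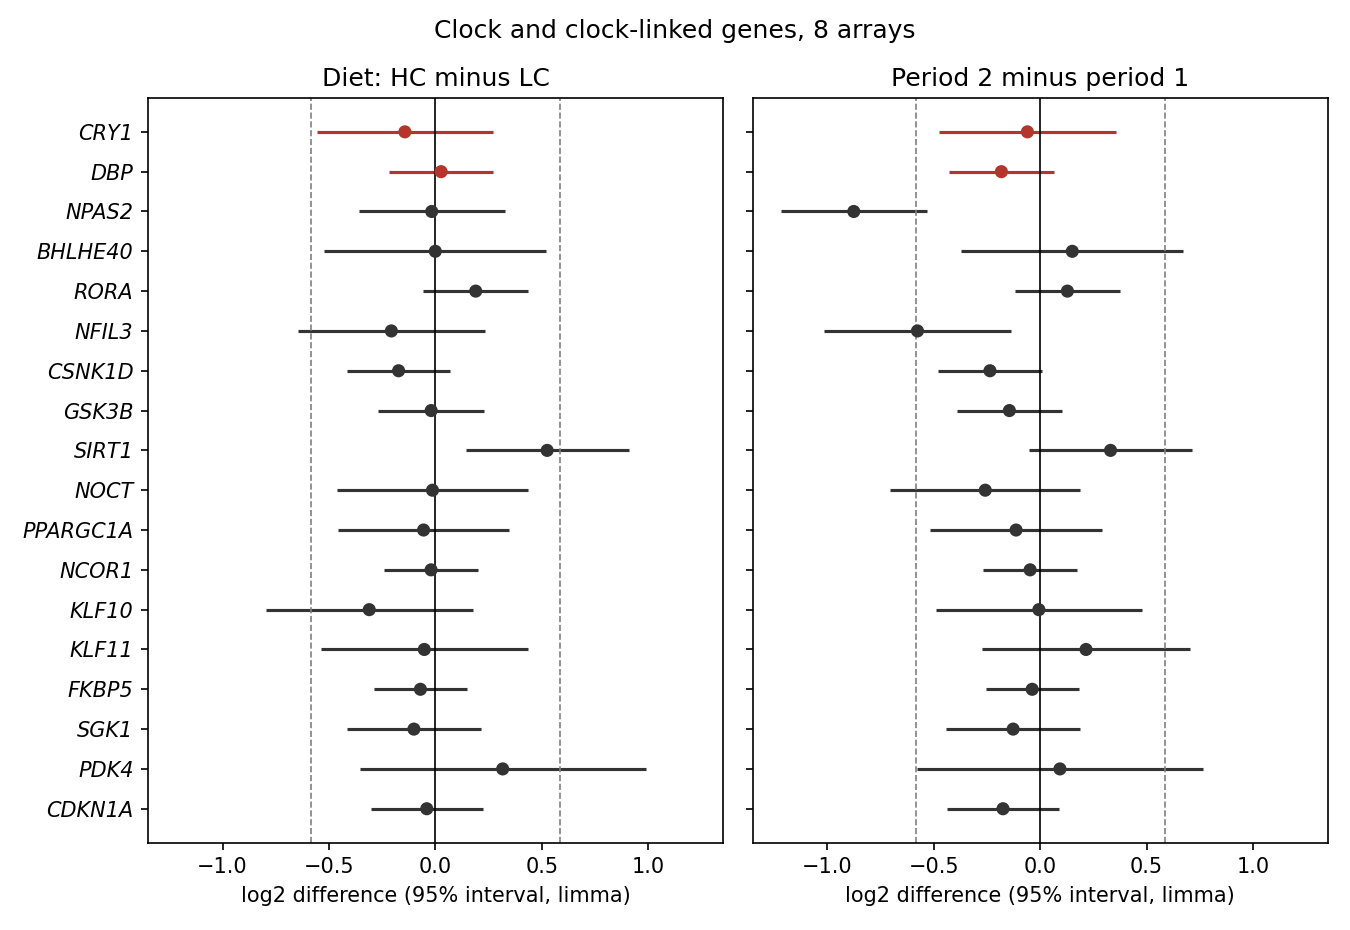
Log2 differences (horizontal axes) with 95% intervals from limma, for diet at left and period at right, for the 18 clock and clock-linked genes well above background on all 8 arrays. CRY1 and DBP are in red, dashed lines mark a fold change of 1.5, and NPAS2 in the right panel is the gene whose estimate lies beyond a dashed line.

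The contrast of cows 1 and 2 against cows 3 and 4 was also taken for the list, and 0 of 20 passed both thresholds, against 2.93% of all probes. An unadjusted P under 0.05 was found for 1 of 20, FKBP5, against 10.2% of all probes. FKBP5, a glucocorticoid-induced chaperone, differed by -0.41 (standard error 0.09, unadjusted P 0.00377). The adjusted P from limma was 0.345.

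**Figure D3:**
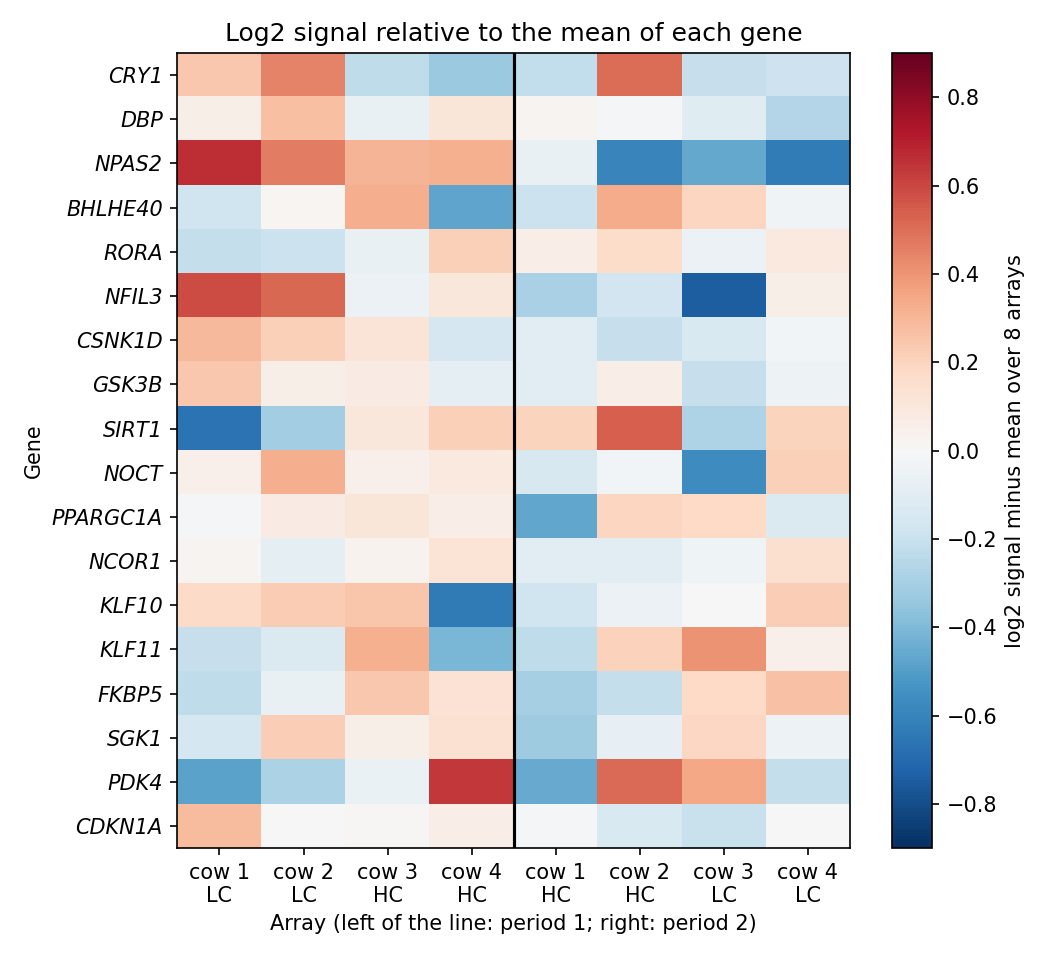
Log2 signal minus the mean of each gene over the 8 arrays (colour, from blue for lower to red for higher) for the same 18 genes (rows), with the arrays of period 1 left of the line and those of period 2 right of it. The departures run from -0.74 to 0.67, and NPAS2 is the row that divides at the line.

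Of the clock genes measured on all arrays CRY1 had the wider range, and its profile was compared with the brightest probe of 6468 other named genes that were well above background on all 8 arrays. Likeness was the root mean square difference of the mean-centred log2 signals over the 8 arrays, for which the median gene had 0.36. The nearest were ELMOD3 (0.12), KNOP1 (0.13), PYGB (0.13), TOM1L1 (0.13) and C23H6orf52 (0.14). ELMOD3 had 11.37 and 11.92 on LC in cows 1 and 2 and 11.18 and 11.82 on HC, against 11.00 to 11.17 on the arrays of cows 3 and 4. The nearest to the mirror image of CRY1 were LTBP2, LOC614260, AGTR1, SELENBP1 and CD55 (0.14 to 0.15). CD55 had 7.72 and 7.70 in cow 2, lower than the 8.12 to 8.36 of the other cows. These genes were taken from many on the same 8 arrays of 4 cows, and the likeness is a description only.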

How the data were processed

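Rumen papillae of 4 cows on 2 diets were measured on 8 single-colour arrays, 4 per diet, and groups follow the labels. The authors deposited the output of Feature Extraction 10.7.3.1, which holds a background-subtracted intensity per spot with no normalization between arrays. They also deposited a table of quantile-normalized log2 values, used here as an alternative. Control spots and the 0 to 13 outlier spots per array were left out. No spot was saturated.

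The log2 intensities were quantile-normalized with limma 3.58.1 in R 4.3.3, as in the study's methods, and spots were averaged to 21475 probes. A probe was called well above background where all its spots were. Of 10176 probes with a RefSeq accession, 8297 were named through the reference (ARS-UCD2.0), where BMAL1 stands as ARNTL, and the brightest probe was used. No positions are given, since the array's build differs from it.

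Limma was fitted to all probes with terms for diet, period and interaction, with Benjamini-Hochberg adjustment over all probes and 4 residual degrees of freedom. The interaction is given as cows 1 and 2 minus cows 3 and 4. Fits were tested on simulated data with arrays drawn independently, so that test did not cover arrays paired by cow. Single genes also had an exact two-sided permutation test of 4 against 4 arrays (scipy 1.17.1, smallest P 0.0286). It treated the arrays as independent and did not use the pairing by cow. Figures were drawn with matplotlib 3.10.9. Alternatives were the normalization, normexp background correction (offset 50, on the median spot signal), the deposited table, a filter on dim probes (well above background on at least 4 arrays), no moderation, no interaction term, cow as a block, the mean of all probes, a diet difference within each slide and each array left out. The diet differences within a slide came from 1 fit to all 8 arrays with a diet term per period. Their standard errors thus rest on both slides.

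The pairing by cow comes from the labels. The deviations from the diet means correlated within cows 1 to 4 with an r of 0.285, 0.298, 0.467 and 0.113 across 16030 probes, against -0.237 to 0.185 between cows. The named genes were the 10 clock genes, the clock-linked genes past both thresholds and well above background on all arrays of a diet or period, and the 5 nearest to the most variable clock gene and to its mirror image. Some clock-linked genes are not reported here and were left out of the counts and figures. The members and lists were chosen with earlier results of these data known. A search for promoter motifs was planned and not run, as no promoter sequence was used here.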

Additional observations from a re-analysis of the deposited data

Results flagged for a closer look

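The HC array labelled cow 2, which the authors' table has under cow 1, stood apart in CRY1. Its log2 signal of 7.56 was so far above the other 3 HC arrays that the gap took a share of 0.866 of the range, over the 95% critical value of Dixon's test for 4 samples. Among the 4 arrays of period 2 the share was 0.949. The LC array of the same cow, at 7.50, was the highest of its diet. Chance gives such a mark in about 1 of 20 groups, and 24 groups were looked at, 4 for each of 6 genes.

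The diet difference was not the same in the 2 periods by the interaction in limma for CRY1 (-0.62 in period 1 and 0.34 in period 2, unadjusted P 0.0295) and FKBP5 (0.33 and -0.48, unadjusted P 0.00377). Neither passed after adjustment over all probes, and the same contrast compares cows 1 and 2 with cows 3 and 4. With 1 mean per cow, limma gave an unadjusted P of 0.0649 for CRY1 and 0.0220 for FKBP5.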

How the results depend on the processing

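For period the count of CRY1 and DBP past both thresholds was 0 in all settings run. For diet it was 1 (CRY1, -0.62) within the slide of period 1, and for the cow pairs 1 (CRY1, 0.66) without the HC array of cow 1. CRY1 was 0.34 within the slide of period 2, and -0.33 to 0.0376 for diet, -0.24 to 0.12 for period and 0.30 to 0.66 for the cow pairs with 1 array omitted, with the changes of sign and the call without the HC array of cow 1. DBP was -0.14 for diet within the slide of period 1, and -0.0288 to 0.0815 for diet, -0.24 to -0.13 for period and 0.11 to 0.22 for the cow pairs with 1 array omitted. NPAS2 kept its direction for period in all 17 alternatives and both thresholds in 16, the exception being normexp (-0.28), and lay between -1.01 and -0.74 with 1 array omitted. Its diet difference was 0.22 within the slide of period 2 and -0.15 to 0.11 with 1 array omitted. Diet differences of opposite sign also appeared within one slide for FKBP5 (0.33, period 1) and NFIL3 (0.11, period 2), and with 1 array omitted FKBP5 lay between -0.0787 and 0.00441 for period. The other clock-linked genes past both thresholds for diet, 1 as reported, were 0 with normexp, the filter on dim probes, no moderation, no interaction term and the slide of period 2, and 2 with the deposited table (ZBTB16 and FBXL21) and the slide of period 1 (ZBTB16 and SIRT1) (0 to 2 with 1 array omitted). For period, 1 as reported, they were 2 with the 75th percentile shift, where NFIL3 passed (-0.67), 0 with normexp and 1 to 3 with 1 array omitted, and for the cow pairs 0 to 3. Cow as a replicate block changed none of the calls named here: the unadjusted P was 0.297 for CRY1 and 0.819 for DBP for diet, and 0.000697 for NPAS2 for period. The probes past both thresholds for diet were 198, against 8 with normexp, 83 with the filter, 105 without moderation, 415 with the deposited table and 276 with the replicate block. For period they were 828, against 32 with normexp and 502 with the filter, and for the cow pairs 629, against 101 with normexp and 360 without moderation. At an unadjusted P under 0.05 alone, limma with normexp had 871 probes for diet, 2335 for period and 2250 for the cow pairs. The main fit had 784, 2636 and 2182. The cause of the changes in these counts was not tested. The mean of all probes changed nothing for CRY1 and DBP, with 1 probe each.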
